A study of Homo sapiens with 6 samples.

Results

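The 35 genes described here encode aminoacyl-tRNA synthetases, the enzymes that load each tRNA with its amino acid. They were chosen by family membership, with earlier results of these data known: a gene was kept when its Entrez identifier in the expression table carried the RefSeq symbol of a synthetase. All 35 were found among the 12486 genes of the table, 19 encoding enzymes of the cytosol (symbols ending in 1, and FARSA and FARSB, the subunits of the phenylalanine enzyme) and 16 encoding enzymes of the mitochondrion (symbols ending in 2). All 35 were also tested, as were 12276 genes in total whose mean reached 0.1 FPKM.

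The cells sequenced were K562, a chronic myeloid leukemia line of human origin with the Bcr-Abl fusion. The 3 control libraries came from cells with stable expression of an shRNA against luciferase (sh-luc), and the other 3 from cells with stable expression of an shRNA against lncRNA-IUR1 (sh-IUR1), which the labels call lncRNA-up91. The comparison addresses which transcripts differ when lncRNA-IUR1 is knocked down. Each group has 1 unnumbered library and libraries r1 and r2, and no other treatment, time or genotype is labelled. Each arm rests on 1 shRNA in 1 cell line, and the methods state that the RNA came from 3 independent groups of cells. Values of the lncRNA-IUR1 transcript were not used here, and the efficiency of the knockdown is therefore not given. Values are FPKM, in which fragments are scaled by gene length and library size, so levels of different genes can be set side by side. In bulk RNA, fewer cells that express a gene and less RNA of it per cell cannot be told apart.

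Aminoacyl-tRNA synthetases fall into class I and class II, which differ in the fold of the catalytic domain. Separate nuclear genes encode most of the cytosolic and mitochondrial enzymes, whereas GARS1 and KARS1 serve both compartments and EPRS1 joins the glutamyl and prolyl enzymes in one chain. Several cytosolic enzymes sit in a multi-synthetase complex with the scaffold proteins AIMP1, AIMP2 and EEF1E1. When amino acids run short, uncharged tRNA activates the kinase GCN2, eIF2 is phosphorylated, and the transcription factor ATF4 is translated and induces amino acid synthesis genes, amino acid transporters and many cytosolic synthetases. ATF4 binds with C/EBP partners to composite elements of the form TGATGNAA.

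One library has to be described before the results. The summed FPKM of the libraries ran from 579820 to 606240, and Pearson's r between libraries across genes ran from 0.990 to 0.998. The unnumbered sh-luc library was, however, the lowest of the 6 for 37.5% of all genes tested and the highest for 23.7%. Library sh-IUR1 r1 was the highest for 25.8% and the lowest for 22.2%. In the unnumbered sh-luc library 23 of 24 genes of the amino acid sensing and ATF4 pathway had their lowest value. Their median deviation from the gene's own 6-library mean was -0.56 there on the log2(FPKM + 1) scale. The same median was 0.17 in sh-luc r1, 0.05 in sh-luc r2, 0.22 in the unnumbered sh-IUR1 library, 0.34 in sh-IUR1 r1 and -0.07 in sh-IUR1 r2. Of 12 K562 markers, all of which were measured, 8 were highest in the unnumbered sh-luc library. The summed FPKM of the markers was 6825 there against 5210 to 5858 in the other 5 libraries. Hemoglobin gamma genes HBG1 and HBG2 made up most of this sum. Of the markers of other cells, the T cell gene CD3D was at 3.51 to 4.96 FPKM, the B cell gene CD79A was at 0.07 to 0.23, the fibroblast gene COL1A1 was at 0.21 to 0.37, and LYZ, a lysozyme made by myeloid cells, was at 107 to 119. CD3E, CD3G, CD2, MS4A1, CD14, MPO, CSF1R, COL1A2 and COL3A1 had no row in the table.

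Promoter sequences are shown first, because many cytosolic synthetase genes are known ATF4 targets and the composite element can be searched for in them. RefSeq GRCh38.p14 promoters, from 250 bases before to 50 after a listed start site, were matched by symbol for 30 of the 35 members. LARS1, VARS1, YARS1, AARS2 and VARS2 had no entry. TGATGNAA was searched on both strands, and 3.62% of 35116 promoters and 4.46% of 27305 genes held it. Of the cytosolic members, 7 of 16 did (43.8%), all of them among the 13 synthetases listed as ATF4 targets, and 1 of 14 mitochondrial members did (7.14%), YARS2. The 8 stretches below are 30 bases long, read 5′ to 3′ on the strand of the gene, with the match in capitals.
AARS1: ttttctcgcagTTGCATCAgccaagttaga
CARS1: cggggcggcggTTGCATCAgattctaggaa
MARS1: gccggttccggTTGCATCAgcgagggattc
IARS1: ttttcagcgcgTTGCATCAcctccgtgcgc
TARS1: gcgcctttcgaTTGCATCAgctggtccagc
NARS1: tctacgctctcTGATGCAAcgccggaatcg
GARS1: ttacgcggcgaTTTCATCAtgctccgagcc
YARS2: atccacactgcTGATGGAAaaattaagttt

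The AARS1, CARS1, MARS1, IARS1 and TARS1 stretches share the same 8 letters, TTGCATCA, which is TGATGCAA read on the opposite strand. NARS1 holds TGATGCAA on the strand of the gene. These 6 are the form with C at the open position, which 1.08% of all genes held. The stretches lie at chr16:70289675-70289704 on the minus strand for AARS1, chr11:3057407-3057436 minus for CARS1, chr12:57488053-57488082 plus for MARS1, chr9:92293692-92293721 minus for IARS1, chr5:33440956-33440985 plus for TARS1, chr18:57621804-57621833 minus for NARS1, chr7:30594834-30594863 plus for GARS1 and chr12:32756076-32756105 minus for YARS2. Counting the base at the start site of the promoter entry as 1 and the base before it as -1, the match starts at -4 in MARS1, -2 in CARS1, 3 in TARS1, -13 in IARS1, 15 in NARS1, -33 in GARS1, -187 in AARS1 and -197 in YARS2. TARS1 and GARS1 have more than 1 entry, and their matches were counted from a start site inside the RefSeq span of the gene. EPRS1, SARS1 and WARS1, on the same ATF4 list, held no match in this window, nor did FARSA, FARSB, HARS1, KARS1, QARS1 or RARS1. A match describes letters in a window and is not a measured binding site.

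By level, the cytosolic genes stood well above the mitochondrial ones. The mean over 6 libraries ran from 35.1 FPKM for HARS1 to 301 FPKM for WARS1 among cytosolic members, with a median of 124, and from 10.02 FPKM for WARS2 to 49.9 FPKM for IARS2 among mitochondrial members, with a median of 20.2. The median over all genes tested was 10.6 FPKM. By mean level, 17 of the 19 cytosolic members were above every mitochondrial member, and the exceptions were HARS1 and EPRS1 (47.5 FPKM), which were below IARS2.

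Cytosolic enzymes were set against a mitochondrial partner for the same amino acid where the members held one. The cytosolic transcript was the higher in all 6 libraries in 17 of 17 pairs. FARS2 was paired with both FARSA and FARSB, and EPRS1 with both EARS2 and PARS2, so the pairs are not all separate. GARS1, KARS1 and QARS1 had no partner among the members. The median ratio of FPKM over the libraries ran from 2.11 for IARS1 over IARS2 to 31.5 for WARS1 over WARS2, and the median pair had a ratio of 3.98. Some ratios hardly moved between libraries. RARS1 over RARS2, the arginine enzymes, ran from 2.64 to 2.86, and SARS1 over SARS2, the serine enzymes, ran from 6.85 to 7.67. Others moved more: CARS1 over CARS2, the cysteine enzymes, ran from 1.43 to 2.71, MARS1 over MARS2, the methionine enzymes, from 6.89 to 13.4, and AARS1 over AARS2, the alanine enzymes, from 8.87 to 15.1. In these 3 pairs the lowest ratio was in the unnumbered sh-luc library and the highest in sh-IUR1 r1.

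**Figure D1:**
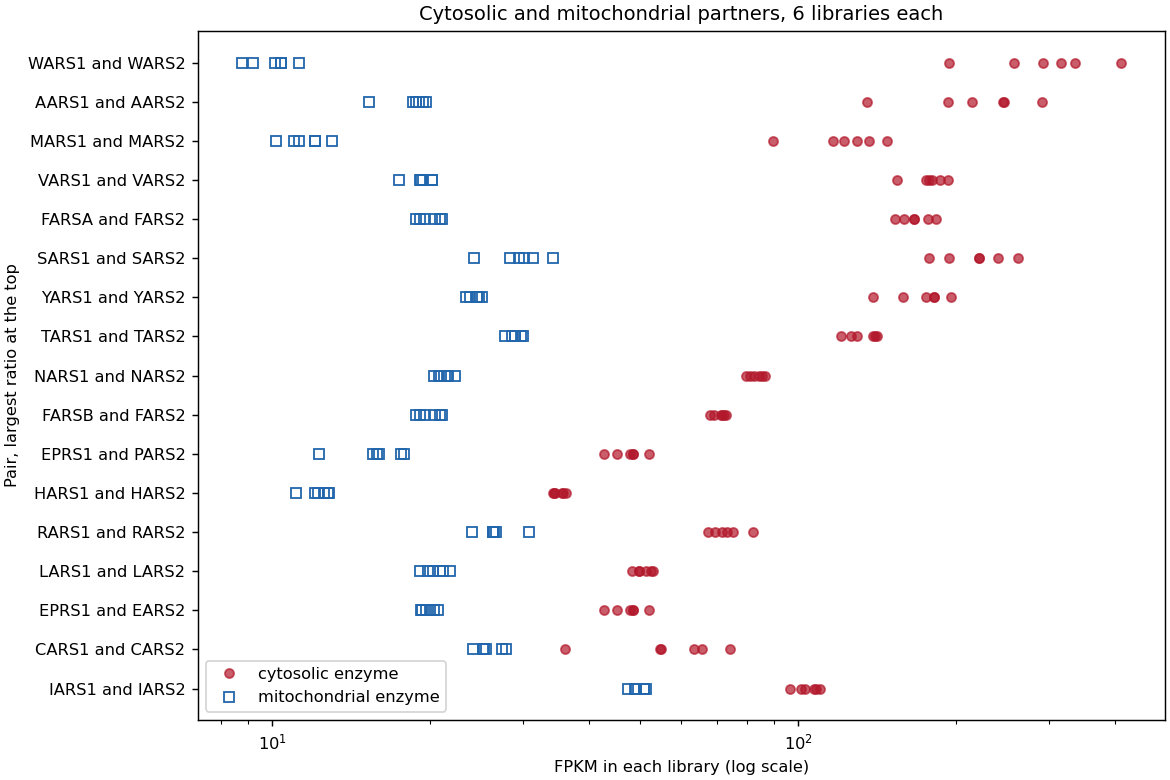
FPKM of the cytosolic synthetase (filled circles) and the mitochondrial partner (open squares) of each pair in each of the 6 libraries. The axis is a log axis, and pairs are ordered by their ratio. In all 17 pairs the circles lie to the right of the squares, from a median ratio of 2.11 for IARS1 and IARS2 at the bottom to 31.5 for WARS1 and WARS2 at the top.

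Between sh-IUR1 and sh-luc, no synthetase passed the test. With limma on log2(FPKM + 1) and Benjamini-Hochberg adjustment over all 12276 genes, 0 members and 0 genes (0%) had an adjusted p under 0.05, and the smallest adjusted p of any gene was 0.930. At an unadjusted p under 0.05, limma put 203 genes (1.65%) at a higher and 122 genes (0.994%) at a lower level after knockdown, and none of the 35 members in either direction. The groups did not overlap for 496 genes with the higher values in sh-IUR1 (4.04%), among them EPRS1 and WARS2, and for 372 genes with the lower values in sh-IUR1 (3.03%), with 0 members among them. The unadjusted counts depended on single libraries. Without sh-luc r1, 6 of 19 cytosolic members, 1 of 16 mitochondrial members and 854 of 12274 genes in all passed an unadjusted limma p of 0.05. Without sh-IUR1 r2, 5 of 19 cytosolic members and 712 of 12277 genes did. Without the unnumbered sh-luc library, 0 cytosolic and 0 mitochondrial members and 219 of 12277 genes did. In none of these fits did a gene pass after adjustment. The exact permutation test of 3 against 3 libraries cannot go below 0.1.

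In direction, 15 of 19 cytosolic and 11 of 16 mitochondrial members had a log2 fold change above 0, as had 58.0% of all genes tested. The median log2 fold change was 0.07 for cytosolic members, 0.02 for mitochondrial members and 0.02 for all genes tested. Leaving out the unnumbered sh-luc library gave medians of 0.02 for cytosolic and -0.01 for mitochondrial members, with 13 of 19 and 7 of 16 above 0. Over all genes tested, 52.7% were then above 0 and the median was 0.0047. Under median-ratio scaling of the libraries the mitochondrial median was -0.0044, with 6 of 16 above 0, against 50.7% and a median of 0.0016 for all genes. All 13 synthetases listed as ATF4 targets had a value above 0, with a median of 0.13, against 2 of the 6 other cytosolic members, with a median of -0.01. In the unnumbered sh-luc library the median deviation of the ATF4 list from the 6-library mean was -0.29, and without that library 11 of the 13 had a value above 0 and the median was 0.06. The part of that library in the direction was otherwise not tested. The 95% interval of the log2 fold change held 0 for every member, and over the members its bounds reached from -0.22 to 0.77 for cytosolic and from -0.31 to 0.38 for mitochondrial genes.

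**Figure D2:**
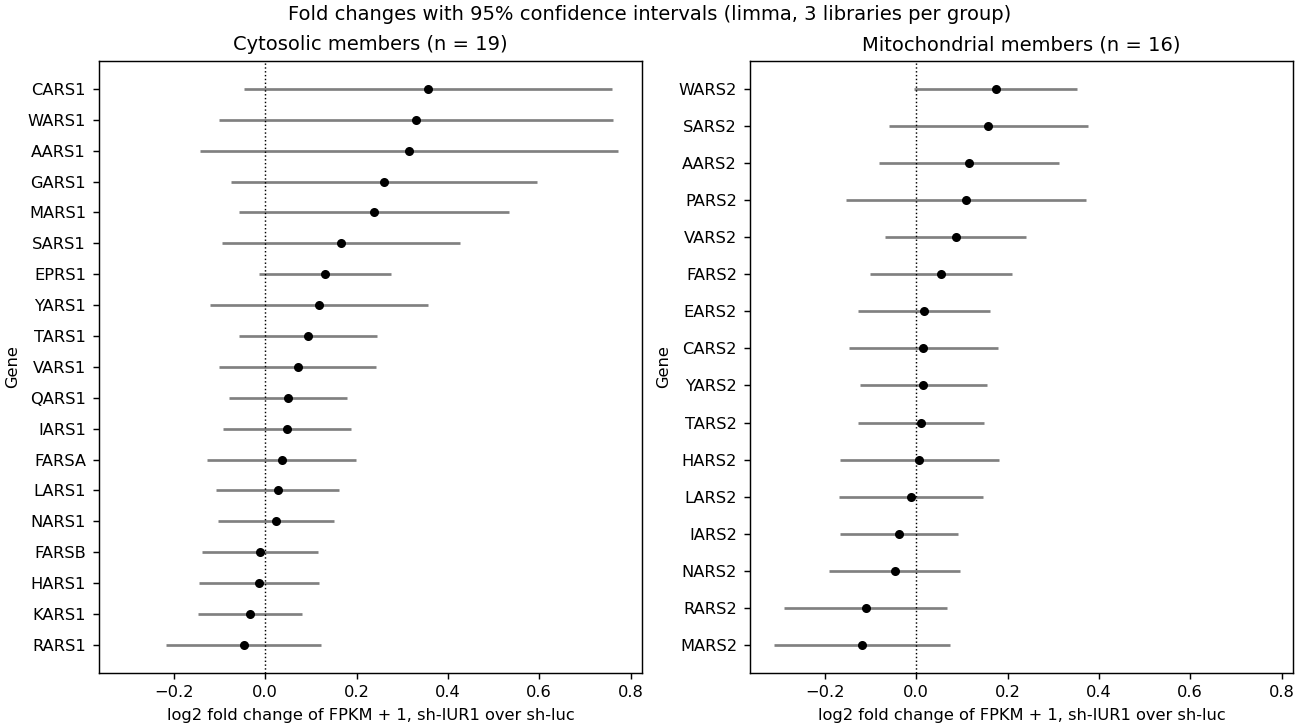
Log2 fold change of FPKM + 1, sh-IUR1 over sh-luc, with its 95% confidence interval from limma for the 19 cytosolic and 16 mitochondrial members (3 libraries per group). The point estimates run from -0.05 (RARS1) to 0.36 (CARS1) on the cytosolic side and from -0.12 (MARS2) to 0.17 (WARS2) on the mitochondrial side, and every interval crosses the dotted line at 0.

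The cytosolic genes differed mainly in how far they moved among the 6 libraries, measured without using the groups. The SD of log2(FPKM + 1) over the libraries was above 0.15 for 7 of them (AARS1, WARS1, CARS1, GARS1, MARS1, SARS1 and YARS1) and between 0.03 and 0.11 for the other 12. Of all genes tested, 19.3% had an SD above 0.15 and the median SD was 0.10. This limit was chosen after the values were seen, so the 7 genes are a description and carry no test. All 7 are on the list of ATF4 targets, and their highest value was 1.41 to 2.15 times their lowest, against 1.06 to 1.249 times for the other 12. All 7 were lowest in the unnumbered sh-luc library and highest in sh-IUR1 r1, so this spread is not separate from the groups.

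**Figure D3:**
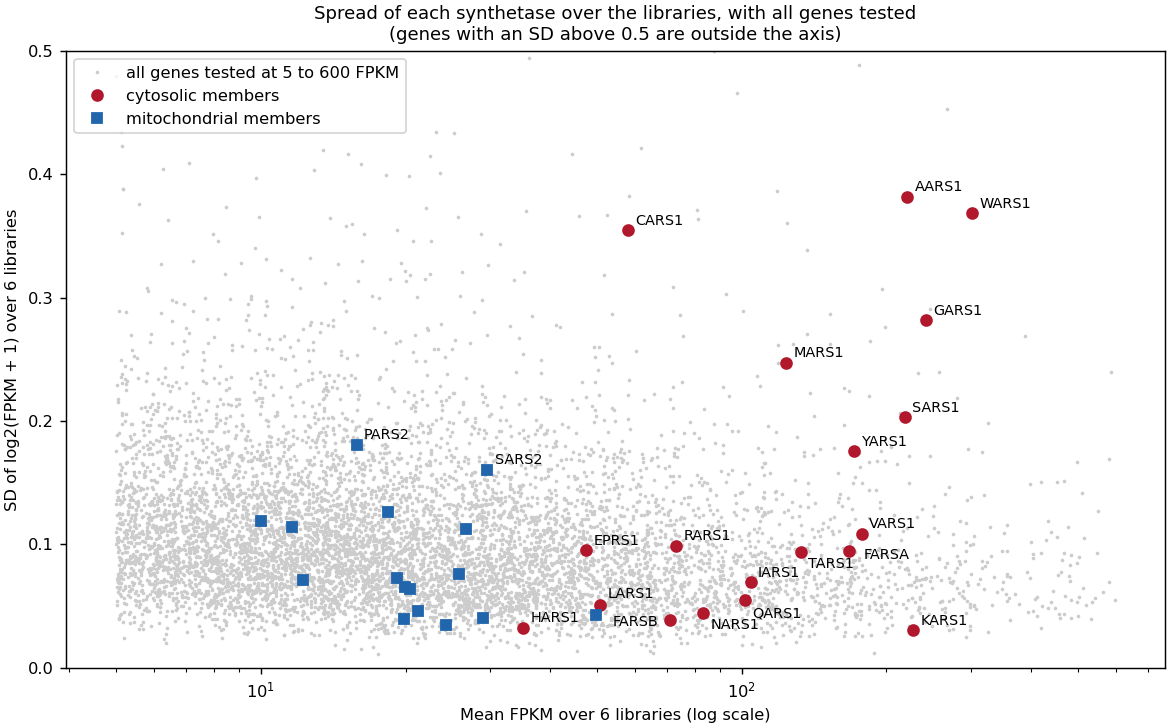
SD of log2(FPKM + 1) over the 6 libraries against the mean FPKM (log axis) for cytosolic members (circles), mitochondrial members (squares) and other genes tested that lie within the axes (grey points). AARS1, WARS1, CARS1, GARS1, MARS1, SARS1 and YARS1 lie above an SD of 0.15, while KARS1 and HARS1 lie at 0.03.

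AARS1, the alanyl-tRNA synthetase gene (Entrez 16, chromosome 16 from 70252298 to 70289506 in GRCh38.p14), was at 136, 246 and 215 FPKM in the unnumbered, r1 and r2 sh-luc libraries and at 246, 292 and 193 FPKM in the corresponding sh-IUR1 libraries. Its SD of 0.38 was at percentile 99.4 of all genes tested. The low value of the unnumbered sh-luc library stood apart from the other 5, and the sh-IUR1 r2 library was below both numbered sh-luc libraries. The log2 fold change was 0.31 ± 0.20 (SE, 95% interval -0.14 to 0.77, limma adjusted p = 0.930), and it was 0.06 without the unnumbered sh-luc library.

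WARS1, the tryptophan enzyme and the most abundant member, was at 193, 317 and 293 FPKM in sh-luc and at 337, 411 and 258 FPKM in sh-IUR1. The group means were 268 ± 65.3 and 335 ± 76.5 FPKM (SD, n = 3), so the means differed by about the spread within either group. Its log2 fold change was 0.33 ± 0.19 (SE, limma adjusted p = 0.930), and 0.11 without the unnumbered sh-luc library. WARS1 is also known as an interferon-responsive gene.

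CARS1, the cysteine enzyme, had the highest log2 fold change of the 35 members, 0.36 ± 0.18 (SE, 95% interval -0.05 to 0.76, limma adjusted p = 0.930). It was at 36.0, 63.4 and 54.8 FPKM in sh-luc and at 65.7, 74.3 and 54.7 FPKM in sh-IUR1. The groups overlapped because sh-IUR1 r2 was below both numbered sh-luc libraries, and without the unnumbered sh-luc library the log2 fold change was 0.13.

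GARS1, which encodes the glycine enzyme of both the cytosol and the mitochondrion, was at 169, 256 and 239 FPKM in sh-luc and at 273, 294 and 222 FPKM in sh-IUR1. MARS1, the methionine enzyme and a member of the multi-synthetase complex, was at 89.6, 130 and 123 FPKM in sh-luc and at 136, 148 and 116 FPKM in sh-IUR1. For both genes the unnumbered sh-luc library was the lowest and sh-IUR1 r2 the second lowest. The log2 fold change was 0.26 ± 0.15 for GARS1 and 0.24 ± 0.13 for MARS1 (SE, limma adjusted p = 0.930 for each), and both were 0.08 without the unnumbered sh-luc library. MARS1 shares the last 65 bases of its RefSeq span with DDIT3 and 757 bases at its start with ARHGAP9, and the sources used here do not say whether fragments were counted by strand.

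SARS1, the serine enzyme, was at 177, 221 and 221 FPKM in sh-luc and at 240, 262 and 194 FPKM in sh-IUR1. YARS1, the tyrosine enzyme, was at 139, 181 and 175 FPKM in sh-luc and at 181, 195 and 158 FPKM in sh-IUR1. In both, sh-IUR1 r2 was again below sh-luc r1 and r2. The log2 fold changes were 0.16 ± 0.12 and 0.12 ± 0.11 (SE), and without the unnumbered sh-luc library they were 0.06 for SARS1 and below 0 for YARS1 (-0.0019).

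Summed over the 7 genes, the level was 939, 1414 and 1319 FPKM in the unnumbered, r1 and r2 sh-luc libraries and 1478, 1676 and 1195 FPKM in the sh-IUR1 libraries. The other 12 cytosolic genes summed to between 1222 and 1305 FPKM, and the 16 mitochondrial genes to between 339 and 361 FPKM. All 35 members together made up 0.412% of the summed FPKM in the unnumbered sh-luc library and 0.484% to 0.560% in the other 5.

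**Figure D4:**
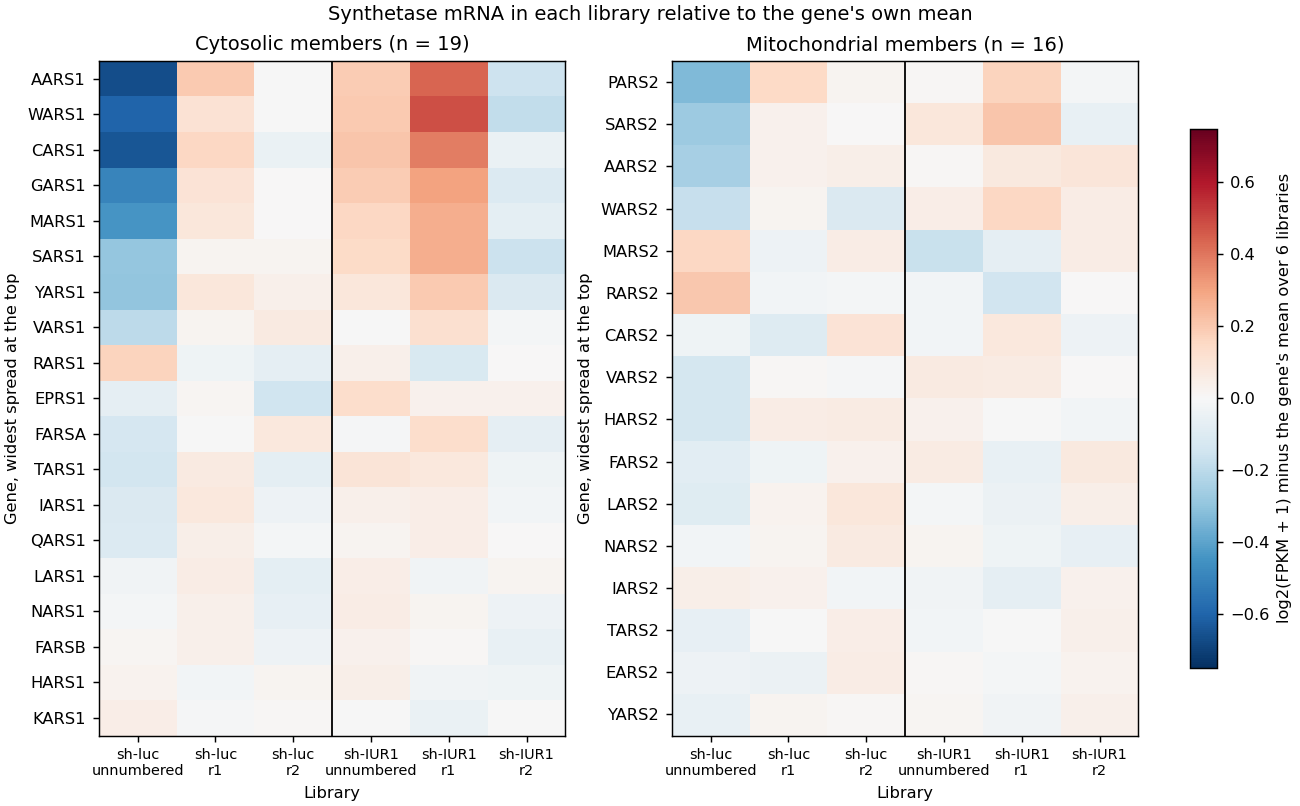
Log2(FPKM + 1) of each member in each library minus the gene's own mean over the 6 libraries, for cytosolic (left) and mitochondrial (right) members ordered by spread, with the vertical line between the sh-luc and sh-IUR1 libraries. The first column of the cytosolic panel, the unnumbered sh-luc library, is lowest for the 7 genes at the top (AARS1 at -0.66), and sh-IUR1 r1 is their highest (0.44 for AARS1), while the lower rows stay near 0.

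The other 6 genes on the ATF4 list moved less. EPRS1, the glutamyl and prolyl enzyme (Entrez 2058, chromosome 1 from 219968600 to 220046505), was at 45.3, 48.0 and 42.7 FPKM in sh-luc and at 52.0, 48.6 and 48.6 FPKM in sh-IUR1. It was the only 1 of the 19 cytosolic members whose groups did not overlap, and 4.04% of all genes tested had this pattern with sh-IUR1 higher. Its exact permutation p was 0.1, the smallest this design can give. Its log2 fold change was 0.13 ± 0.07 (SE, 95% interval -0.01 to 0.28, limma adjusted p = 0.930), and it was again 0.13 without the unnumbered sh-luc library. The gap between the groups was small, since the lowest sh-IUR1 value was 48.55 and the highest sh-luc value 47.99 FPKM.

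TARS1, the threonine enzyme, was at 121, 139 and 126 FPKM in sh-luc and at 142, 140 and 130 FPKM in sh-IUR1. VARS1, the valine enzyme, was at 155, 180 and 186 FPKM in sh-luc and at 177, 193 and 175 FPKM in sh-IUR1. Both overlapped between groups, with log2 fold changes of 0.09 and 0.07. IARS1, the isoleucine enzyme, was at 96.6, 110 and 101 FPKM in sh-luc and at 107, 108 and 103 FPKM in sh-IUR1. LARS1, the leucine enzyme and also a leucine sensor for mTORC1, was at 49.9, 52.9 and 48.3 FPKM in sh-luc and at 52.6, 49.8 and 51.5 FPKM in sh-IUR1. For NARS1, the asparagine enzyme, the values were 82.5, 85.4 and 79.8 FPKM in sh-luc and 86.4, 84.4 and 81.1 FPKM in sh-IUR1. IARS1, LARS1 and NARS1 thus had overlapping groups and log2 fold changes of 0.05, 0.03 and 0.02. TARS1, IARS1 and NARS1 hold TGATGCAA in the promoter window, as do AARS1, CARS1 and MARS1, so a match was seen in genes with both wide and narrow spread: 4 of 6 genes with an SD above 0.15 and an entry, and 3 of 10 of the other cytosolic genes.

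Of the 6 cytosolic members outside the ATF4 list, KARS1, HARS1, FARSB and QARS1 had an SD at percentile 1.27 to 11.8 of all genes tested, and FARSA and RARS1 at percentile 47.0 and 50.9. Such low percentiles were not limited to these genes. NARS1 and LARS1, on the ATF4 list, were at percentile 5.48 and 8.79, and the mitochondrial YARS2 and EARS2 at 2.23 and 3.76. KARS1, the lysine enzyme of both compartments, was at 235, 226 and 229 FPKM in sh-luc and at 227, 220 and 227 FPKM in sh-IUR1. GARS1, which like KARS1 serves both compartments and had a similar mean level, was at percentile 97.9. HARS1, the histidine enzyme, was at 35.8, 34.5 and 35.5 FPKM in sh-luc and at 36.2, 34.4 and 34.2 FPKM in sh-IUR1. Between its RefSeq span and that of HARS2, its mitochondrial relative, lie 84 bases. FARSB, the beta subunit of the phenylalanine enzyme, was at 71.8, 72.8 and 69.1 FPKM in sh-luc and at 72.4, 71.4 and 68.1 FPKM in sh-IUR1.

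FARSA, the alpha subunit, was at 153, 166 and 176 FPKM in sh-luc and at 166, 183 and 159 FPKM in sh-IUR1. The subunits form one enzyme, yet FARSA was at 167 FPKM on average and FARSB at 70.9. QARS1, the glutamine enzyme, was at 94.6, 104 and 100.4 FPKM in sh-luc and at 103, 105 and 102 FPKM in sh-IUR1. RARS1, the arginine enzyme, was at 82.2, 71.5 and 69.6 FPKM in sh-luc and at 75.2, 67.3 and 73.3 FPKM in sh-IUR1. RARS1 was the cytosolic member with the lowest log2 fold change, -0.05 ± 0.08 (SE, limma adjusted p = 0.945), and with KARS1 it was highest in the unnumbered sh-luc library, where AARS1 and the others of wide spread were lowest.

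The mitochondrial members differed less between libraries at the upper end. None had a highest value of 1.5 times its lowest or more, compared with 5 of 19 cytosolic members and 21.6% of all genes tested, and their median SD was 0.07. At a lower limit the compartments were closer, since 6 of 16 mitochondrial and 9 of 19 cytosolic members had an SD above the median of all genes tested, and PARS2 and SARS2 had an SD above 0.15. WARS2, the tryptophan enzyme (Entrez 10352, chromosome 1 from 119031216 to 119140672), had the highest log2 fold change of the mitochondrial members, 0.17 ± 0.08 (SE, 95% interval from just under 0 to 0.35, limma adjusted p = 0.930). It was at 8.76, 10.1 and 9.20 FPKM in sh-luc and at 10.4, 11.2 and 10.4 FPKM in sh-IUR1, with no overlap between groups (exact permutation p = 0.1). That pattern held for 1 of the 16 mitochondrial members and for 4.04% of all genes tested. Leaving out the unnumbered sh-luc library gave WARS2 a log2 fold change of 0.13.

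SARS2, the serine enzyme, was at 24.2, 30.2 and 29.5 FPKM in sh-luc and at 31.3, 34.2 and 28.3 FPKM in sh-IUR1. It followed the library order of SARS1, its cytosolic partner, and its log2 fold change was 0.16 ± 0.10 (SE, limma adjusted p = 0.930), and 0.06 with the unnumbered sh-luc library left out. AARS2, the alanine enzyme, was at 15.3, 18.8 and 18.99 FPKM in sh-luc and at 18.5, 19.4 and 19.6 FPKM in sh-IUR1. Only the unnumbered sh-luc library was low for AARS2, and the log2 fold change was 0.12 with it and 0.02 without it. PARS2, the proline enzyme, had the widest spread of the mitochondrial members (SD 0.18), at 12.3 FPKM in the unnumbered sh-luc library and 15.6 to 17.8 FPKM in the other 5. Its log2 fold change was 0.11 with all libraries and -0.03 with that library left out.

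At the other end, MARS2, the methionine enzyme, was at 13.0, 11.3 and 12.1 FPKM in sh-luc and at 10.2, 11 and 12.1 FPKM in sh-IUR1. RARS2, the arginine enzyme, was at 30.8, 26.3 and 26.4 FPKM in sh-luc and at 26.2, 24.0 and 26.7 FPKM in sh-IUR1. NARS2, the asparagine enzyme, was at 20.9, 21.6 and 22.3 FPKM in sh-luc and at 21.5, 20.8 and 20.3 FPKM in sh-IUR1. These were the 3 lowest log2 fold changes of the mitochondrial members, -0.12 ± 0.09, -0.11 ± 0.08 and -0.05 ± 0.06 (SE), and their groups overlapped. For MARS2 and RARS2 the unnumbered sh-luc library was the highest of the 6, and leaving it out gave log2 fold changes of -0.07 for MARS2, -0.04 for RARS2 and -0.07 for NARS2. The remaining mitochondrial members, CARS2, EARS2, FARS2, HARS2, IARS2, LARS2, TARS2, VARS2 and YARS2, had log2 fold changes from -0.04 (IARS2) to 0.09 (VARS2). Their SD over the libraries ran from 0.03 (YARS2) to 0.08 (CARS2).

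Several members lie across other genes in RefSeq. YARS1 shares 797 bases with S100PBP, CARS2 shares 900 bases with ING1, EARS2 shares 3606 bases with GGA2, and FARS2 shares 11017 bases with LYRM4, each of which also had tested values. How fragments in such stretches were assigned is not given in the sources used here.

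Both structural classes held genes of wide and of narrow spread. Of 19 class I genes, 14 had a log2 fold change above 0, with a median of 0.05 and a median SD of 0.10, and of 16 class II genes 12 did, with a median of 0.05 and a median SD of 0.08. WARS1 and CARS1 are of class I, and AARS1 and GARS1 are of class II. EPRS1, whose chain also holds the prolyl enzyme, was counted in class I only, whereas PARS2 was counted in class II. Among 10 listed genes of the multi-synthetase complex, 7 were above 0 and the median was 0.04. MARS1 had the widest spread of these genes (SD 0.25), and their median SD was 0.09.

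The rest of the ATF4 pathway was set beside the synthetases library by library. Of 24 measured genes on the pathway list (VLDLR had no row), 22 had a log2 fold change above 0. The median over the 24 was 0.31, and 0 passed the limma threshold. For all genes tested, the share above 0 was 58.0% and the median was 0.02. In the unnumbered sh-luc library 23 of the 24 had their lowest value. The median deviation of the 24 from the gene's own mean over all libraries was -0.56 there. It was 0.17 in sh-luc r1 and 0.05 in sh-luc r2. The sh-IUR1 libraries had medians of 0.22 (unnumbered), 0.34 (r1) and -0.07 (r2). Both numbered sh-luc medians thus lay within the range of the sh-IUR1 medians. The part of the unnumbered sh-luc library in these fold changes was otherwise not tested. DDIT3, which encodes the stress factor CHOP, was at 41.9, 97.2 and 88.8 FPKM in sh-luc and at 101, 111 and 85.6 FPKM in sh-IUR1. From lowest to highest the order of the libraries was unnumbered sh-luc, sh-IUR1 r2, sh-luc r2, sh-luc r1, unnumbered sh-IUR1 and sh-IUR1 r1.

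That exact order was shared by CARS1, GARS1, MARS1, SARS1, WARS1 and YARS1 among 19 cytosolic members, by SARS2 among 16 mitochondrial members and by 11 of 24 pathway genes, DDIT3 included. It was shared by 376 genes in all, 3.06% of those tested. AARS1 missed it only in sh-luc r1 and the unnumbered sh-IUR1 library, which were level at 246 FPKM. Steps as narrow placed other genes in the order. CARS1 was at 54.71 FPKM in sh-IUR1 r2 and 54.78 in sh-luc r2. SARS1 was at 220.54 FPKM in sh-luc r2 and 220.62 in sh-luc r1. YARS1 was at 180.98 FPKM in sh-luc r1 and 181.31 in the unnumbered sh-IUR1 library. DDIT3 was taken as the reference after its values were seen, so these counts are descriptive, and the genes share the same 6 libraries. ASNS, the asparagine synthetase and a standard ATF4 target, was at 176, 265 and 238 FPKM in sh-luc and at 279, 308 and 213 FPKM in sh-IUR1, in the same order. The ATF4 transcript itself had a narrow range, from 252 to 298 FPKM, and was lowest in the unnumbered sh-luc library and highest in sh-IUR1 r2.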

How the data were processed

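Gene expression was measured by RNA-seq in 3 sh-luc and 3 sh-IUR1 libraries of K562 cells, grouped by the treatment label. According to the methods and the submitters' processing notes, the authors trimmed adaptors, masked low-quality and low-complexity sequence, mapped the remainder to hg38 and used samtools 0.1.19 to obtain RPKM. The aligner, annotation and use of strand are not given in the sources used here. The deposited expression columns are FPKM with 2 decimals. The authors also deposited a score (the z-score of each gene over the libraries), a cluster number and a fraction (membership of that cluster), none of which was used in a test. The smallest SD of any listed gene was 0.05 FPKM, so steadier genes are outside the counts. No count data or depths were used, so no count model was run and the precision that depth would give is unknown.

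Of 12486 Entrez identifiers, 12363 had a RefSeq GRCh38.p14 symbol. Genes whose mean reached 0.1 FPKM (12276) were tested on the log2(FPKM + 1) scale with limma (version 3.58.1, R 4.3.3), using lmFit and a trended eBayes. Group was the only term, and Benjamini-Hochberg adjustment ran over all genes. A call was an adjusted p under 0.05. This fit was tested on simulated data with independent noise for each gene, which does not cover differences that genes share between libraries. Summaries were made in Python 3.11.15 (pandas 2.3.3, numpy 2.4.6, scipy 1.17.1) and plots in matplotlib 3.10.9. Lists are described by counts and medians, and a few listed genes are not reported here. The members and lists were chosen with earlier results of these data known. Values per library are given for all cytosolic members, for the 3 mitochondrial members with the highest and the 3 with the lowest log2 fold change, and for members whose groups did not overlap. PARS2, DDIT3, ASNS and ATF4 were named after their values were seen. Alternatives were quantile normalization or median-ratio scaling, a pseudocount of 0.1 FPKM, a filter at a mean of 1 FPKM or none, untrended eBayes, the replicate label as a block, and leaving out single libraries.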

Additional observations from a re-analysis of the deposited data

How the results depend on the processing

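No alternative gave a member an adjusted p under 0.05. Over 455 member values from 13 alternatives, limma adjusted p-values ran from 0.667 to 1, and 426 kept the direction. The 29 that reversed belonged to 14 members, 7 cytosolic and 7 mitochondrial. The cause was not tested. Under median-ratio scaling the reversed log2 fold changes were -0.0043 for CARS2, -0.0034 for EARS2, -0.013 for HARS2, -0.010 for TARS2 and -0.0045 for YARS2. Under quantile normalization they were 0.0010 for FARSB, 0.0050 for KARS1, -0.022 for HARS2 and -0.00015 for YARS2. These scalings put 50.7% and 48.9% of all genes above 0, against 58.0% as deposited. When single libraries were left out, the log2 fold change ran from -0.021 to 0.085 for FARSA, -0.033 to 0.014 for FARSB, -0.0022 to 0.063 for LARS1, -0.093 to 0.026 for RARS1, -0.0095 to 0.12 for VARS1 and -0.0019 to 0.20 for YARS1. Among mitochondrial members it ran from -0.028 to 0.071 for CARS2, -0.0021 to 0.050 for EARS2, -0.057 to 0.040 for HARS2, -0.061 to 0.027 for LARS2, -0.030 to 0.21 for PARS2, -0.019 to 0.037 for TARS2 and -0.0074 to 0.034 for YARS2.

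At an unadjusted p under 0.05, limma gave 325 genes and 0 cytosolic members with all libraries. Without sh-luc r1 it gave 854 genes and 6 cytosolic members, without sh-IUR1 r2 712 genes and 5, and without the unnumbered sh-IUR1 library 156 genes and 0. Without the unnumbered sh-luc library it gave 219 genes and 0 cytosolic members, without sh-luc r2 297 and 0, and without sh-IUR1 r1 231 and 0. With the replicate block 533 genes and 5 cytosolic members passed, 0 genes were called at an adjusted p under 0.05, and the median log2 fold change of cytosolic members was 0.07. For the label as a pairing, deviations were taken from the gene's mean within its own group, not from the 6-library mean. Libraries with the same label did not deviate together throughout. The correlation across genes was 0.04 between the unnumbered libraries, 0.39 between r1 libraries and -0.34 between r2 libraries, so the label was not taken as a pairing.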

Other observations

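TARS3, a further threonine enzyme outside the 35 members, ran from 5.23 to 7.18 FPKM, with overlapping groups and a log2 fold change of -0.13.

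Of 21 measured genes on a wider list of tRNA charging, TARS3 included, 12 had a log2 fold change above 0, the median was 0.0050 and 0 passed the limma threshold. XPOT, the export receptor for tRNA, was at 49.3, 58.7 and 52.8 FPKM in the unnumbered, r1 and r2 sh-luc libraries and at 60.4, 58.1 and 56.3 FPKM in sh-IUR1, so the unnumbered sh-luc library was the lowest and the groups overlapped. SEPSECS, an enzyme that makes selenocysteinyl-tRNA, was at 4.31, 6.13 and 5.63 FPKM in sh-luc and at 7, 7.06 and 5.71 FPKM in sh-IUR1. It had the highest log2 fold change of the list at 0.26 ± 0.12 (SE). PTRH2, a peptidyl-tRNA hydrolase, had the lowest at -0.25 ± 0.13 (SE), with 74.0, 51.8 and 51.0 FPKM in sh-luc and 48.5, 44.5 and 53.3 FPKM in sh-IUR1. For PTRH2 the unnumbered sh-luc library was the highest of the 6. SEPSECS and PTRH2 were named after their values were seen.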
